A study of Mus musculus with 44 samples.

Results

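Snai1 occupied 1535 sites that lay close to an annotated gene end in both HPC7 populations that received it, the one with wild-type Snai1 and the one with the mutant. The sites were chosen by the peak calls and summit positions themselves. Each was a wild-type peak that met some mutant peak (1 shared base sufficed) and met no empty-vector peak, with its summit within 5 kb of either end of a RefSeq gene (GRCm38). These sites were 52.4% of the 2929 wild-type peaks (95% exact Clopper-Pearson interval 50.6 to 54.2%, counting error only). They overlapped 1540 of the 12037 mutant peaks (12.8%). Of the other wild-type peaks, 871 were shared with the mutant list but lay farther from genes, 432 had neither a mutant nor an empty-vector peak, and 91 overlapped 1 of the 137 empty-vector peaks.

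Snai1 is a zinc-finger transcription factor of the Snail family, best known for repressing epithelial genes during epithelial-mesenchymal transition. Its zinc fingers bind the E-box CAGGTG, and its N-terminal SNAG domain recruits Lsd1 (Kdm1a), a demethylase that removes the mono- and dimethyl marks of H3K4, a lysine in the tail of histone H3. H3K4me1 marks enhancers and the flanks of promoters, and H3K4me2 marks both active promoters and enhancers. HPC7 is a mouse haematopoietic progenitor line that grows in stem cell factor (mSCF).

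All cells compared here were HPC7 cells in mSCF that were transduced with the retroviral vector MSCV-IRES-GFP, sorted for GFP 1 week later and expanded. The vector carried no insert (EV), wild-type Snai1 cDNA (WT), or a Snai1 cDNA (MUT) in which alanine replaces phenylalanine at residue 5, a change that the labels describe as impairing the interaction with Lsd1. The vector drives Snai1 from a retroviral promoter in 1 cell line, so these are sites of introduced Snai1. Each construct had 4 technical replicates of Snai1 ChIP and 4 of input. There was 1 peak list per construct, so peak values have no replicate error. H3K4me1 and H3K4me2 were each sequenced in 3 libraries per construct, and IgG in 2 libraries of WT cells.

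The sequence under the summits could be read where a summit fell in a tabulated RefSeq promoter, from 250 bases before to 50 bases after a gene start (GRCm38.p6). This held for 233 sites (15.2%). The stretches below were chosen to show how the E-box lies against the summit. They reach up to 75 bases to each side of the wild-type summit, as far as the promoter goes, and capitals mark CAGGTG or its complement CACCTG. The Atp6v1g2 stretch is chr17:35236388-35236538 on the plus strand and belongs to the site whose nearest gene end is that of Nfkbil1. The Ccdc181 stretch is chr1:164275463-164275613 on the plus strand, that of Dcps chr9:35176081-35176231 on the minus strand, that of Ttc1 chr11:43747959-43748106 on the minus strand, and that of Tfrc chr16:32608651-32608801 on the plus strand. Those 5 follow from the rule for named sites. The next 4 were added after their values were seen. Mterf4 at chr1:93305927-93306077 and Wbp2 at chr11:116087045-116087195, both on the minus strand, carry 2 boxes each. Cyb5b at chr8:107150426-107150576 on the plus strand and Hps1 at chr19:42780036-42780186 on the minus strand are strong sites without the letters.
Atp6v1g2: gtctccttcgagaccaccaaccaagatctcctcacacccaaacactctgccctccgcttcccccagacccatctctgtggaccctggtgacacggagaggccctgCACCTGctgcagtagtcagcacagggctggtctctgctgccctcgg
Ccdc181: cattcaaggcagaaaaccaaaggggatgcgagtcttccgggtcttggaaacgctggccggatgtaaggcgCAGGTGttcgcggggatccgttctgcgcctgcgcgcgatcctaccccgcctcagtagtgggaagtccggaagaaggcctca
Dcps: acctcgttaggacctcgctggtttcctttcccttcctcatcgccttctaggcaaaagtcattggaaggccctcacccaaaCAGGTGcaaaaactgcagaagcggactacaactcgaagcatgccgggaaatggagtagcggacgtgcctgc
Ttc1: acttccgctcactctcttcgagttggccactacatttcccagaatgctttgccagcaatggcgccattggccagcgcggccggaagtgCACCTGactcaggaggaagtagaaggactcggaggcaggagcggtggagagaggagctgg
Tfrc: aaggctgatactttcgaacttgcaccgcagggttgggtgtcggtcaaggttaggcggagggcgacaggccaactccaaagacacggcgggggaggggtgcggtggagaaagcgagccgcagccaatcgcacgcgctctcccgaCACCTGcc
Mterf4: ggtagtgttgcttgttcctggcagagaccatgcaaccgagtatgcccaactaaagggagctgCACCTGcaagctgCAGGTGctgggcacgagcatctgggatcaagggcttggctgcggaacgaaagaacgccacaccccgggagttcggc
Wbp2: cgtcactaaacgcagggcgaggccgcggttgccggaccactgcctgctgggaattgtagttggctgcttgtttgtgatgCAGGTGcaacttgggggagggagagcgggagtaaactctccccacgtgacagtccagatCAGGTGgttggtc
Cyb5b: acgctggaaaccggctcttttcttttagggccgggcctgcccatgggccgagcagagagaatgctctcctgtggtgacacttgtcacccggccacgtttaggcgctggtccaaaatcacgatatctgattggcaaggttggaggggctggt
Hps1: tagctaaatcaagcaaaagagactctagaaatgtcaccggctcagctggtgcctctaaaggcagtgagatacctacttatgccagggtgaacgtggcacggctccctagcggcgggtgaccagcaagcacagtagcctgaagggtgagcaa

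In the Ccdc181 promoter the centre of the box lay 2.5 bases from the wild-type summit, and in Mterf4 the nearer of the boxes lay at the same distance. The box was 6.5 bases away in Wbp2, 7.5 bases in Dcps, 15.5 bases in Ttc1, 32.5 bases in Atp6v1g2 and 70.5 bases in Tfrc. Tfrc encodes the transferrin receptor, through which cells take up iron, and its box was near the edge of the printed stretch. The sites at Cyb5b, a mitochondrial cytochrome b5, and Hps1, a subunit of a lysosome-related organelle complex, had wild-type folds of 13.9 and 9.91 with no such letters in the tabulated promoter.

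The E-box was present in the promoter under 154 of the 233 sites (66.1%, interval 59.6 to 72.1%). The same letters, on either strand, were in 6634 of all 32817 tabulated promoters (20.2%). Under mutant peaks near gene ends that overlapped no wild-type peak, they were in 418 of 1892 promoters (22.1%, interval 20.2 to 24.0%). Where the promoter was taken under the mutant summit instead, sites shared by both lists held the box in 178 of 265 promoters (67.2%). The intervals of shared and mutant-only sites do not meet, and the mutant-only share was close to that of all promoters.

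Other letters did not set the shared sites apart in this way. The E-box of Myc and Usf type, CACGTG, was under 26 of the 233 sites (11.2%), against 11.5% of mutant-only promoters and 7.15% of all promoters. The E-box with a central GC, CAGCTG, was under 27 sites (11.6%), against 13.7% and 16.3%. The variant CAGGTA was under 18 sites (7.73%), against 8.99% and 11.95%. The Ets letters CCGGAAG were under 64 sites (27.5%), against 34.3% of mutant-only promoters and 8.86% of all promoters. The GC box GGGCGG was under 129 sites (55.4%), against 62.7% and 35.6%. Letters of the CRE, TGACGTCA, were under 13 sites (5.58%), against 5.23% and 1.79%. The Runx letters TGTGGT were under 36 sites (15.5%), the Gata letters AGATAA under 16 (6.87%) and CCAAT under 90 (38.6%), against 16.8%, 11.2% and 37.4% of all promoters. Ets letters, the GC box and the CRE were thus more frequent under both kinds of peak than in all promoters. Over the whole promoter the Snail-type box was more frequent under shared sites, and near the share of all promoters under mutant-only sites. All motifs were searched on both strands. The 3 forms of E-box overlap as cases of CANNTG, which was under 202 sites (86.7%), in 64.9% of mutant-only promoters and in 72.3% of all promoters.

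The box lay at the summit more often than elsewhere in the promoter. Among the 154 promoters with a box, its median distance from the wild-type summit was 25 bases. Of the 233 sites, 40 had a box centred within 10 bases of the summit, 77 within 25 bases and 113 (48.5%) within 50 bases. For the 169 sites whose promoter covers 101 bases around the summit, 79 (46.7%, interval 39.0 to 54.6%) held the box in that span. The same span held it at 158 of 1501 mutant-only sites (10.5%, interval 9.02 to 12.2%), and at 7.29% of all promoters read at the offsets of the shared sites. Near the summit the mutant-only share was thus also above that of all promoters, though far below that of shared sites.

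The bases next to the box also differed from those in all promoters. Read as CAGGTG on its own strand, the box within about 56 bases of the summit was preceded by G in 80 of 124 cases (64.5%) and by A in 33 (26.6%). It was followed by C in 54 (43.5%). Over the 7663 boxes of all promoters, G stood before in 31.5% and C stood after in 23.2%.

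Sites with the box were the stronger ones. With a box the median fold was 6.90 in the wild-type list and 11.6 in the mutant list (154 sites), and without it 5.26 and 7.29 (79 sites). Ranked by the wild-type -log10 q, 28 of the 59 lowest sites held the box (47.5%, interval 34.3 to 60.9%), and 51 of the 58 highest (87.9%, interval 76.7 to 95.01%). At mutant summits the share also rose with the mutant fold. From 20 of 46 (43.5%) at folds of 4 to 6 it went to 81 of 92 (88.0%, interval 79.6 to 93.9%) at folds of 12 or more. Mutant-only sites went from 163 of 948 (17.2%) to 30 of 43 (69.8%, interval 53.9 to 82.8%). Between folds of 4 and 12 the intervals of shared and mutant-only sites did not meet, and at folds of 12 or more and under 4 they did.

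**Figure D1:**
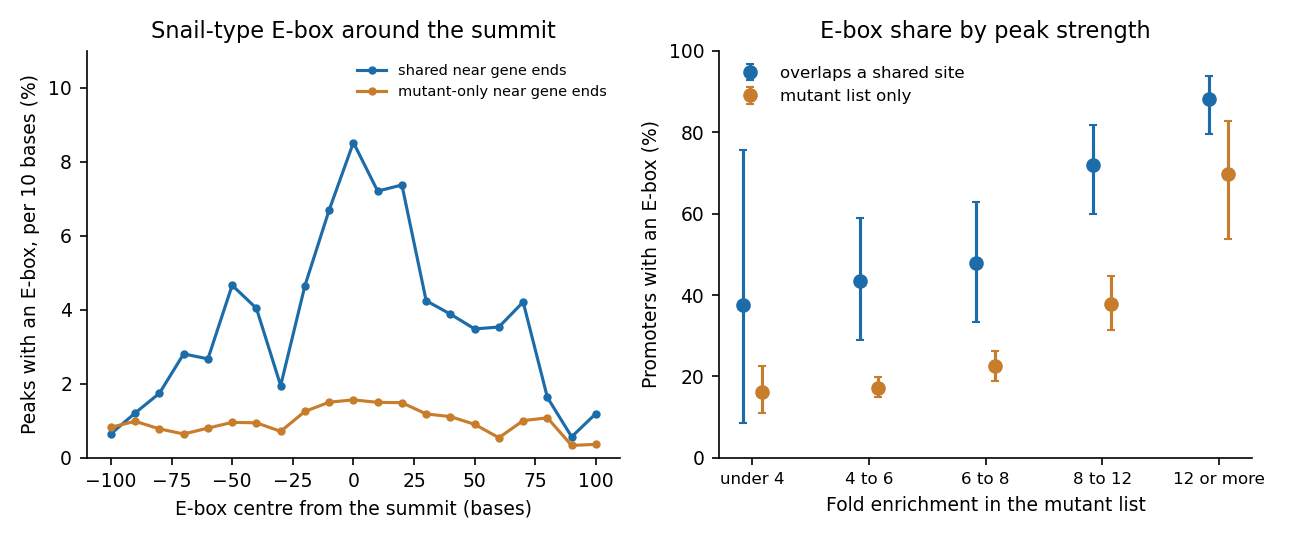
The left panel plots the share of summits in tabulated promoters with a Snail-type E-box centred at each distance (per 10 bases), for shared and mutant-only sites near gene ends. The right panel plots the share of promoters with the box by fold in the mutant list, with 95% exact intervals; it rises from 43.5% at folds of 4 to 6 to 88.0% at 12 or more for shared sites, and from 17.2% to 69.8% for mutant-only sites.

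The peak values below are the authors' own, from the lists by which the sites were chosen, and are given as a description with no test. The median fold over local background of the 1535 sites was 6.33 in the wild-type list (lowest 2.78, highest 33.8) and 7.87 in the mutant list (lowest 2.72, highest 62.7). The mutant value was the higher at 1029 sites (67.0%, interval 64.6 to 69.4%, counting error over sites only), with a median log2 ratio of mutant to wild type of 0.31. For the shared sites far from genes the mutant value was the higher at 66.9%, almost the same share. All sites of a construct come from the same list, so the interval holds no error of the comparison between constructs. The lists held 2929 wild-type and 12037 mutant peaks. A difference in scale between them would shift all sites together and was not tested. At 251 sites the mutant fold was more than 2 times the wild-type fold, and at 29 the reverse held. The summits of both lists lay a median of 31 bases apart, and 1328 sites (86.5%) had them within 100 bases. Wild-type peaks that were not shared were weaker, with a median fold of 5.53, and so were mutant-only peaks near gene ends, at 5.27. The rule asks for a peak in both lists, which by itself favours strong peaks, so this difference is no separate finding.

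**Figure D2:**
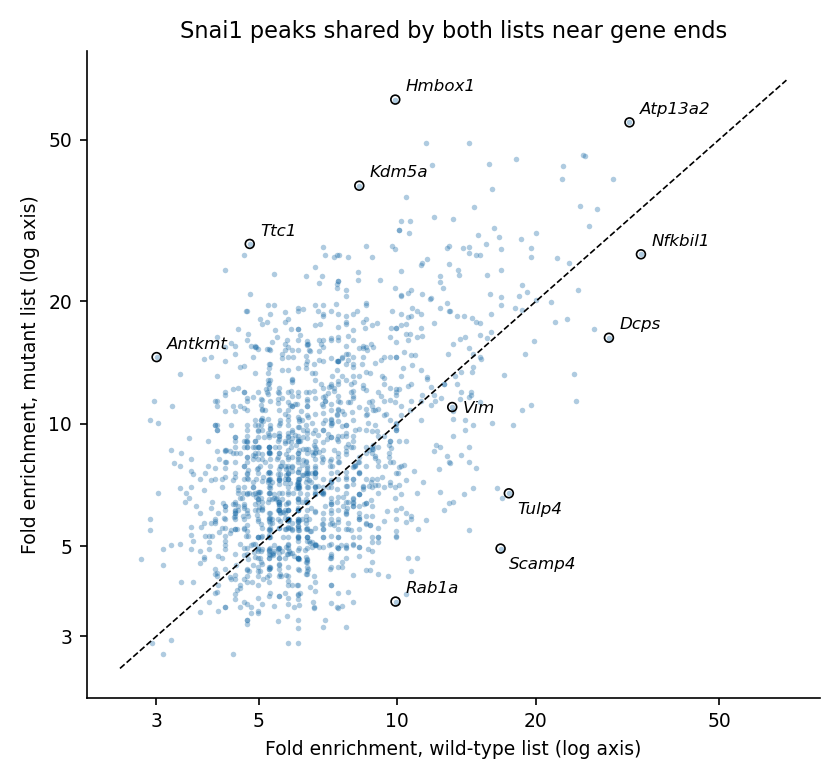
Each point is 1 of the 1535 sites, with its fold enrichment in the wild-type list on the x axis and in the mutant list on the y axis, both log axes; the dashed line marks equal values. Of the sites, 1029 lie above the line, and named examples range from Hmbox1 (9.90 and 62.7) to Scamp4 (16.8 and 4.93).

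The strongest site by wild-type -log10 q was at Nfkbil1, which encodes an inhibitor-like protein of the NF-kappaB pathway. Its summit lay 18 bases inside that gene and in the tabulated promoter of Atp6v1g2, with a fold of 33.8 in the wild-type list and 26.1 in the mutant list. It was followed by a site near Atp13a2, a lysosomal transport ATPase, with folds of 31.9 and 55.1. Ccdc181 had 23.6 and 24.9. A site inside Rad52, a gene of homologous recombination, had 25.6 and 45.5, and one inside Sdc4, the heparan sulphate proteoglycan syndecan-4, had 22.9 and 43.0. Next to Klf16, a Krueppel-like zinc-finger factor, the values were 29.4 and 40.0. Of the 12 strongest, those at Nfkbil1, Dcps, Il6ra and the lncRNA gene Gm41564 had the higher fold in the wild-type list, and the other 8 in the mutant list. Dcps, the scavenger mRNA-decapping enzyme, had 28.8 and 16.3, and Il6ra, the interleukin-6 receptor subunit, had 26.8 and 17.1.

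The site with the highest ratio of mutant to wild-type fold was at Hmbox1, a homeobox gene of telomere maintenance, where the fold was 9.90 in the wild-type list and 62.7 in the mutant list, a ratio of 6.33. Ttc1, an adaptor with tetratricopeptide repeats, had 4.78 and 27.7 (ratio 5.79). Osgin1, a gene of the oxidative stress response, had 4.64 and 26.0. Kdm5a, which demethylates H3K4me3 and H3K4me2, had 8.27 and 38.5 (ratio 4.65), and Antkmt, a lysine methyltransferase of mitochondria, had 3.00 and 14.6. At Klf10, a factor induced by TGF-beta, the ratio of 5.65 comes from a mutant peak that covers 2 wild-type sites, and its summit lay 416 bases from that of the weaker site. The stronger Klf10 site had folds of 13.6 and 23.9.

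At the other end, the site in Scamp4, a membrane protein of secretory carriers, had a fold of 16.8 in the wild-type list and 4.93 in the mutant list (ratio 0.294). Rab1a, a GTPase of transport from the endoplasmic reticulum to the Golgi, had 9.91 and 3.65. Tulp4 had 17.5 and 6.74. The lncRNA genes 4833447I15Rik and Gm30588 had ratios of 0.383 and 0.389, and the tRNA gene n-TIaat7 had 0.364. With 1 list per construct no replicate error can be set against these ratios.

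The median distance of the summits from the nearest gene end was 713 bases, with an interquartile range of 263 to 1813 bases. Within 250 bases of a gene end lay 371 sites (24.2%, interval 22.0 to 26.4%), against 41.9% of the 6160 mutant-only sites near gene ends (interval 40.7 to 43.1%). The strand of the nearest gene was tabulated for 1174 sites. The start was the nearer end at 968 of these (82.5%), as at 82.2% of mutant-only sites. The median distance from that start was 572 bases for shared and 233 bases for mutant-only sites. Of the 968 summits 543 (56.1%) lay on the gene's side of the start. Shared sites were thus near starts as often as mutant-only sites, but less tightly around them.

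**Figure D3:**
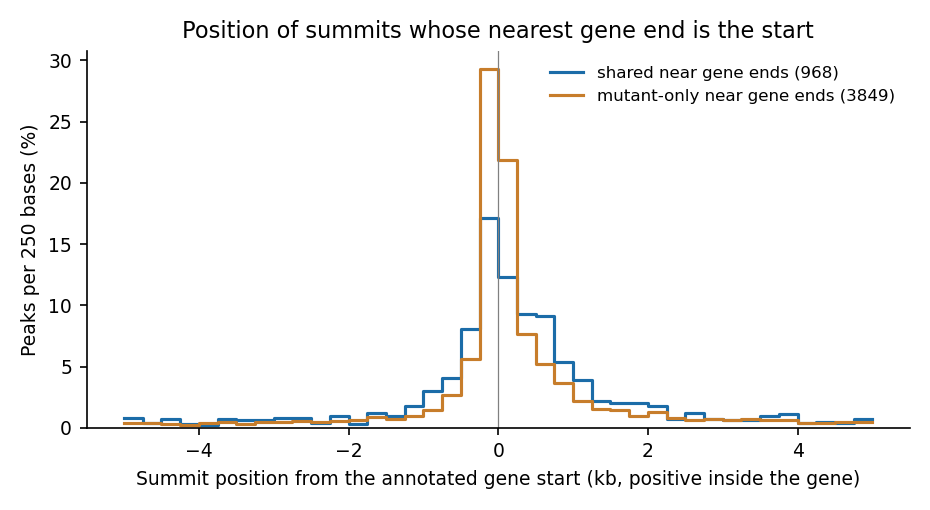
The share of summits per 250 bases is plotted against the distance from the gene start in kb (positive inside the gene), for the 968 shared and 3849 mutant-only sites whose nearest gene end is a start. The median distance from the start is 572 bases for shared and 233 bases for mutant-only sites.

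Summits of 987 sites (64.3%) were inside a gene. The nearest gene was protein-coding at 1083 sites (70.6%), a lncRNA gene at 356 (23.2%), a pseudogene at 46 and a miRNA gene at 20. Among the miRNA genes was Mir150, a miRNA of mature lymphocytes, with folds of 5.26 and 7.30. In all, 2233 genes had an end within 5 kb of a summit, 1520 of them among the 21900 protein-coding genes (6.94%), and 694 sites had 2 or more such genes. There were 167 genes with 2 or more sites. Mlycd, the malonyl-CoA decarboxylase, had 4, and Cpt1a, the carnitine palmitoyltransferase of liver type, had 3, as had Zfp36l2, Rbm38, Klf10 and Cbfa2t3. Chromosome 1 held 10.2% of the sites and 5.96% of the genes, and chromosome X held 1.11% of the sites and 5.02% of the genes. The whole wild-type list was spread in the same way, with 322 of its 2929 peaks on chromosome 1 and 27 on chromosome X. Just inside the limit of 5 kb were the sites at Stat3 (4993 bases) and just outside it was E2f2 (5001 bases).

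Of 30 stem and progenitor factors, 6 had a site. At Kit, the receptor for stem cell factor, the wild-type fold was 10.2 and the mutant fold 11.1. Lyl1, a basic helix-loop-helix factor of progenitors, had 7.72 and 20.6, and Ikzf2, a zinc-finger factor of the Ikaros family, had 9.78 and 8.03. Flt3, a cytokine receptor of progenitors, had 4.45 and 14.9. Runx1, a factor required for blood stem cells to form, had 3.10 and 4.50, and the surface marker Cd34 had 3.46 and 6.43. Of 22 genes of H3K4 methylating and demethylating enzymes 7 had a site, which were Kdm5a, Kmt2e, Men1, Rbbp5, Setd1a, Setd7 and Wdr5. Men1, the menin scaffold of a methyltransferase complex, had 13.5 and 12.5. Of 20 Lsd1 complex genes only Ctbp1, a corepressor, had one, with 4.70 and 19.0.

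Of 25 mesenchymal genes 4 had a site. Vim, the intermediate filament vimentin, had folds of 13.2 and 10.99 in the wild-type and mutant lists, and Itgb1, integrin beta 1, had 9.37 and 12.5. Tgfb1 had 5.29 and 7.05, and its receptor gene Tgfbr1 had 8.27 and 5.89. Of 30 epithelial genes 3 had a site, among them Cldn4, a tight junction claudin, with 7.92 and 12.5. Myeloid genes had 2 of 26 (Cebpe and Irf5), erythroid and megakaryocytic genes 2 of 26 (Gp9 and Tfrc), cell cycle genes 4 of 30, housekeeping genes 5 of 26, interferon response genes 1 of 25 (Bst2) and lymphoid genes 0 of 25. The share over all protein-coding genes was 6.94%, and the lists were not tested against it.

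The methylation counts, in windows around gene starts, did not enter the choice of sites. Counts summed over all windows ranged from 4040418 to 18185750 per library for H3K4me1 and H3K4me2, and were 3353574 and 2713014 for IgG. These sums are not the read totals of the libraries, since they cover only the windows and neighbouring windows can share reads. In both marks replicate 1 stood apart from replicates 2 and 3 in every construct, with a variance between libraries 9.49 to 17.7 times counting error against 0.980 to 2.30 times between replicates 2 and 3. Empty-vector H3K4me1 replicates 2 and 3 differed by less than the sampling noise and were counted as 1 sample. The labels do not say whether replicates came from separate cultures, so p-values measure only the spread between these libraries. Of 6 progenitor genes that mark the line, 5 had more H3K4me2 than IgG in their window (Kit, Gata2, Tal1, Lyl1 and Runx1, but not Lmo2), and of 6 lymphoid genes none had. The window of Snai1 itself had an H3K4me2 level of 32.9, 54.4 and 41.4 CPM in WT, 26.7, 35.1 and 26.3 CPM in EV and 56.5, 33.8 and 30.9 CPM in MUT libraries, groups that overlap. It covers the cell's own gene as well as any reads from the introduced cDNA, so it does not check the labels.

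Genes at the sites were marked by H3K4 methylation. Windows were counted for 1650 of the 2233 genes (73.9%). In WT cells the median log2 ratio of H3K4me2 to IgG (CPM + 0.5) was 0.89 over these windows, against -1.59 over all 27044 windows, and it ranged from 0.87 to 0.90 over the 3 WT libraries. It was above 0 in 1413 of the 1650 (85.6%) and in 40.3% of all windows. For H3K4me1 the median was 0.67, against -0.48. Genes at mutant-only sites had medians of 0.76 and 0.49. The median H3K4me2 level at the sites' genes was between 76.6 and 80.4 CPM in the 9 libraries, and the median over all windows between 7.18 and 10.6 CPM. IgG medians were 45.9 and 40.5 CPM at the sites' genes, against 38.2 and 38.3 CPM over all windows.

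**Figure D4:**
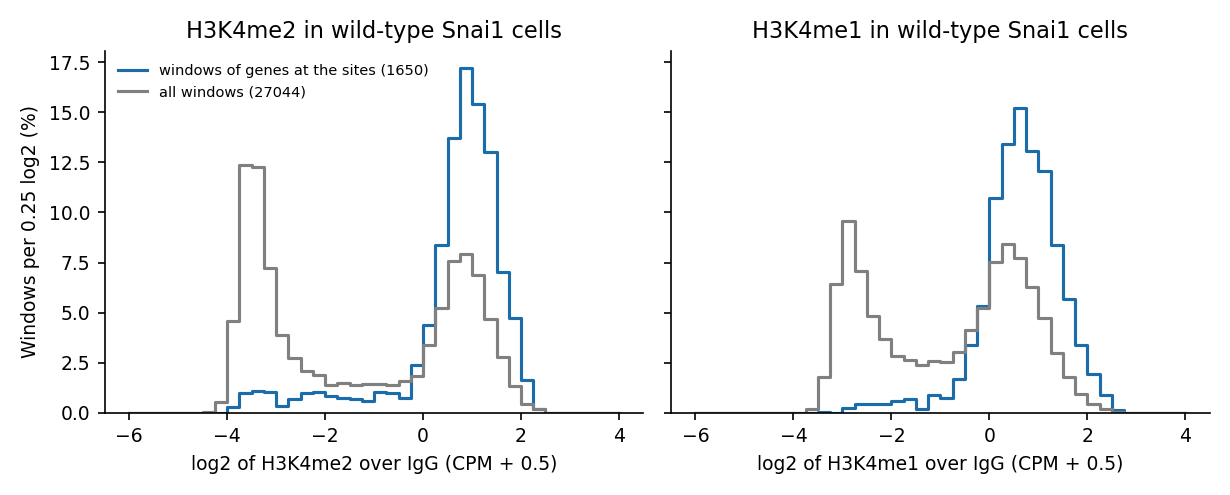
The share of windows per 0.25 log2 is plotted against the log2 ratio of H3K4me2 (left) or H3K4me1 (right) to IgG in WT cells, for the 1650 windows of genes at the sites and for all 27044 windows. All windows fall into a low and a high mode, and windows of the sites' genes lie mostly in the high mode, with medians of 0.89 and 0.67.

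Single genes show the range. Kit had an H3K4me2 level of 170.2, 163.6 and 168.0 CPM in the 3 WT libraries, 169.5, 171.0 and 176.6 CPM with empty vector, and 169.3, 149.1 and 156.0 CPM with the mutant. The groups overlapped, and the mutant values reached lowest. Vim had 146.9, 129.6 and 128.6 CPM in WT, 147.0, 119.9 and 121.0 CPM in EV, and 157.9, 125.5 and 123.7 CPM in MUT libraries, so replicate 1 was the highest in each construct and the groups overlapped. Runx1 H3K4me1 was 142.9, 151.1 and 152.3 CPM in WT, 158.4, 124.4 and 126.9 CPM in EV, and 198.5, 111.3 and 104.8 CPM in MUT libraries. MUT replicate 1 was the highest of these and MUT replicates 2 and 3 the lowest. Sdc4, among the 12 genes with the strongest sites, had little H3K4me2, at 9.99, 11.5 and 10.4 CPM in WT, 19.1, 15.2 and 14.6 CPM in EV and 20.03, 12.6 and 10.96 CPM in MUT libraries.

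The question these counts address is whether Snai1 alters H3K4 methylation around the starts of genes near its sites. A second question is whether this needs the interaction with Lsd1. The windows need not cover the sites themselves. A tabulated start lay within 2500 bases of a summit for 916 windows. No window of a gene at the sites passed an adjusted p of 0.05 in edgeR's quasi-likelihood test in any of the 6 comparisons. All 1650 windows were tested in each. Over all windows tested the same test called 0.00388% for H3K4me2 in WT against EV (1 of 25742) and 0% in each of the other 5. At an unadjusted p under 0.05, H3K4me2 gave 125 windows of the sites in WT against EV (7.58%, against 7.32% of all windows tested), 80 in MUT against EV (4.85%, against 4.95%) and 149 in WT against MUT (9.03%, against 9.9%). H3K4me1 gave 25 (1.52%, against 2.88%), 10 (0.606%, against 1.61%) and 65 (3.94%, against 5.24%). The share of the sites' windows was thus slightly above the background in H3K4me2 WT against EV and below it in the other 5 comparisons. DESeq2 called 4 of the sites' windows in H3K4me2 WT against EV (0.242%, against 0.563% of all it tested). It called 0 in MUT against EV (against 0.0222%) and 3 in WT against MUT (0.182%, against 0.404%). In H3K4me1 it called 0 (against 0.00371%), 0 (against 0%) and 1 (0.0606%, against 0.154%). These shares have unlike bases. That of all windows counts only those DESeq2 gave an adjusted p (16518 in H3K4me2 WT against EV), and that of the sites counts all 1650.

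The medians over the 1650 windows were small and changed sign between replicates. In H3K4me2 WT against MUT the median log2 difference was 0.11, against -0.04 over all windows and 0.11 for genes at mutant-only sites. Within replicate 1 it was -0.11, and within replicates 2 and 3 it was 0.24. WT against EV gave a median of 0.05, with -0.02 in replicate 1 and 0.09 in replicates 2 and 3, and MUT against EV gave -0.05, with 0.09 and -0.12. In H3K4me1 the median was 0.03 in WT against EV, -0.02 in MUT against EV and 0.06 in WT against MUT. H3K4me1 WT against MUT was -0.22 in replicate 1 and 0.20 in replicates 2 and 3. Scaled by column totals in place of TMM, the H3K4me2 medians of the sites were -0.02 in WT against EV and 0.03 in WT against MUT, beside -0.07 and -0.13 over all windows, so the first turned sign and the second shrank. The ratio of the sites' median H3K4me2 level to that of all windows moved with this, at 11.2, 7.23 and 7.36 in the MUT libraries, 9.59, 10.7 and 9.84 in WT and 9.56, 8.91 and 8.61 in EV. The part of this ratio in the medians was not tested. The comparisons with EV share its libraries, and those with WT or MUT share theirs.

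Left out 1 at a time, only libraries of replicate 1 changed the count, and not in every comparison. In H3K4me1 WT against EV and MUT against EV no left-out library changed it. Without MUT replicate 1, 409 of the sites' windows (24.8%) were called in H3K4me2 WT against MUT, 390 higher and 19 lower in WT. Of all windows tested 16.6% were called, 2741 higher and 1548 lower in WT. Without WT replicate 1 there were 15 (0.909% of the sites' windows, against 0.957% of all windows). For MUT against EV, 69 were called without MUT replicate 1 (4.18%, against 2.4% of all windows). Without EV replicate 1 there were 30 (1.82%, against 1.58%). For WT against EV, 50 were called without EV replicate 1 (3.03%, against 2.79%) and 9 without WT replicate 1 (0.546%, against 0.682%). In H3K4me1 WT against MUT, 15 were called without MUT replicate 1 (0.909%, against 0.823%). In H3K4me1 none was called without WT replicate 1, where 0.00781% of all windows were, and leaving out replicate 2 or 3 of any construct called 0 of the sites' windows. With the replicate number as a block edgeR called 0, 0 and 0 of the sites' windows in H3K4me2 WT against EV, MUT against EV and WT against MUT (0.0194%, 0% and 0.0466% of all windows), and 0, 0 and 1 in H3K4me1 (0.00782%, 0% and 0.00782%). With replicates 2 and 3 summed and the block it called 1, 1 and 3 in H3K4me2 (0.342%, 0.073% and 0.45% of all windows). In H3K4me1 it called 1, 0 and 3 (0.085%, 0.00386% and 0.0734% of all windows). Without the filter on low counts it called 0 in each, and 0.0037% of all windows in H3K4me2 WT against EV.

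**Figure D5:**
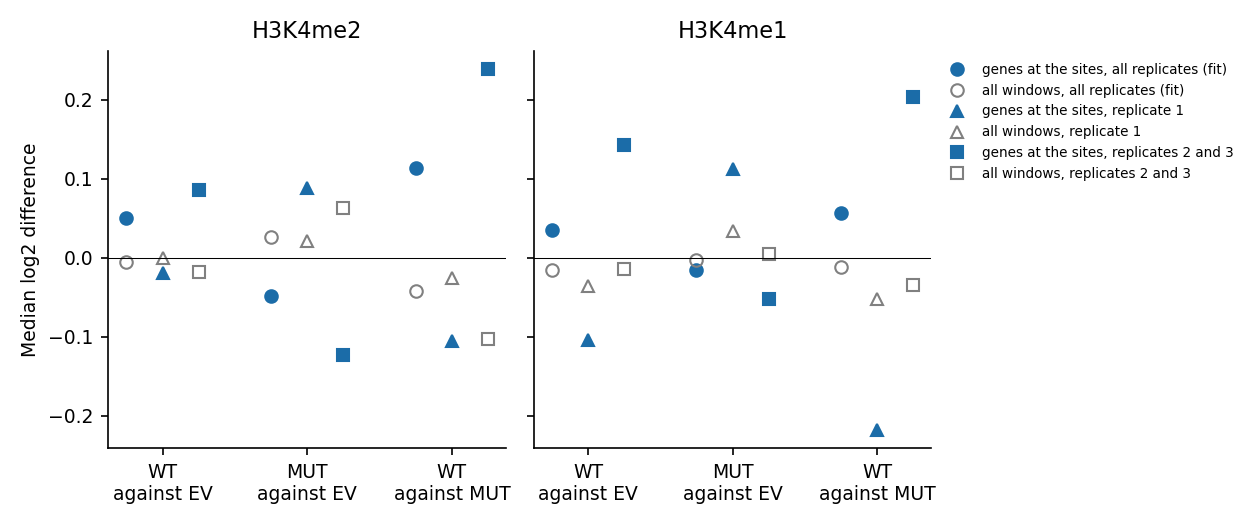
The median log2 difference is plotted for each comparison and mark, over the windows of genes at the sites (filled) and all windows (open), from the fit to all replicates (circles), from replicate 1 (triangles) and from replicates 2 and 3 (squares). In WT against MUT the sites' median is -0.11 in replicate 1 and 0.24 in replicates 2 and 3 for H3K4me2, and -0.22 and 0.20 for H3K4me1.

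The windows with the smallest p-values are named here as the closest to a change, although none passed. Choosing by p favours windows whose groups do not overlap, and the share of such windows over all windows was not counted. Ackr3, a scavenger receptor for the chemokine Cxcl12, has a weak site 445 bases from a gene end, with folds of 3.90 and 5.11. Its H3K4me1 level was 87.5, 82.9 and 79.7 CPM in WT, 52.2, 67.5 and 66.3 CPM in EV and 43.6, 27.6 and 30.9 CPM in MUT libraries. The 3 groups did not overlap, with WT highest and MUT lowest. The log2 difference of WT against MUT was 1.29 (SE 0.19, edgeR adjusted p = 0.630), and it was 1.00 in replicate 1 and 1.47 in replicates 2 and 3. DESeq2 called it (adjusted p = 0.000217), and so did edgeR with the replicate number as a block (adjusted p = 0.0489, and 0.000668 with replicates 2 and 3 also summed). The summed fit holds only replicate 1 and 1 sum per construct, so its p-values, here and for the genes below, rest on few libraries. The labels do not say whether the numbers pair libraries, and deviations of same-numbered WT and MUT libraries did not correlate throughout. Ackr3 H3K4me2 was 32.4, 29.9 and 32.8 CPM in WT, and 11.4, 14.8 and 15.1 CPM in MUT libraries, a log2 difference of 1.21 (SE 0.28, edgeR adjusted p = 0.503; DESeq2 adjusted p = 0.00115; edgeR adjusted p = 0.00180 with replicates 2 and 3 summed and the block). EV libraries had 14.7, 35.4 and 32.6 CPM, which reach from the MUT into the WT range.

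N4bp3, which encodes a binding partner of the ubiquitin ligase Nedd4, has a site of nearly equal fold in both lists (12.6 and 12.5). Its H3K4me2 was 26.0, 17.2 and 11.8 CPM in WT, 37.2, 91.7 and 85.3 CPM in EV and 37.5, 54.2 and 61.3 CPM in MUT libraries. The WT values were the lowest and overlapped neither group. The log2 difference of WT against EV was -1.94 (SE 0.33, edgeR adjusted p = 0.252), with -0.52 in replicate 1 and -2.63 in replicates 2 and 3. DESeq2 called it (adjusted p = 0.00738). With replicates 2 and 3 summed and the replicate number as a block it was called too (edgeR adjusted p = 4.34e-11). With the block and replicates 2 and 3 kept as separate libraries it was not called. The summed fit holds only replicate 1 and 1 sum per construct, and the difference was far smaller in replicate 1. Its p-value thus rests on few libraries that differ widely. H3K4me1 at N4bp3 was 40.3, 26.9 and 28.4 CPM in WT and 61.5, 71.9 and 77.5 CPM in EV libraries, a log2 difference of -1.09 (SE 0.26, edgeR adjusted p = 1.00; 0.0111 with replicates 2 and 3 summed and the block).

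Cd40, a receptor of the TNF family, has a site with folds of 8.55 and 5.94. Its H3K4me2 was 14.8, 28.1 and 28.2 CPM in MUT and 11.9, 6.34 and 4.39 CPM in WT libraries, and 15.2, 7.74 and 6.94 CPM in EV libraries. WT against MUT gave a log2 difference of -1.63 (SE 0.41, edgeR adjusted p = 0.503). With replicates 2 and 3 summed and the block it was called (edgeR adjusted p = 0.0288), as it was in H3K4me1 (adjusted p = 0.00579). Ache, acetylcholinesterase, had 74.8, 93.4 and 86.5 CPM in WT and 103.3, 122.4 and 126.7 CPM in MUT libraries, a log2 difference of -0.47 that was the same in replicate 1 (-0.46) and in replicates 2 and 3 (-0.47). Synj2bp, a mitochondrial outer membrane protein, had 66.6, 73.0 and 82.2 CPM of H3K4me2 in WT and 58.7, 36.9 and 39.0 CPM in EV libraries. These groups did not overlap, and DESeq2 called the difference (adjusted p = 0.0315) while edgeR did not (adjusted p = 0.446). Creb3l1 H3K4me1 did not overlap between WT and MUT, with 62.6, 140.3 and 130.1 CPM in WT and 47.2, 46.2 and 52.9 CPM in MUT libraries. The log2 difference was 1.19 (SE 0.32, edgeR adjusted p = 0.847), with 0.40 in replicate 1 and 1.45 in replicates 2 and 3. It was called with replicates 2 and 3 summed and the block (adjusted p = 0.0485).

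Over the gene lists, none of the windows counted for any of the 11 lists was called in any of the 6 comparisons with edgeR. All 6 stem and progenitor factors with a site had more H3K4me2 than IgG, as had all 7 H3K4 enzyme genes and all 4 mesenchymal genes with a site, while 1 of the 3 epithelial genes with a site did (Crb3). Over whole lists this held for 25 of 30 progenitor factors, 7 of 25 mesenchymal genes and 4 of 29 epithelial genes. Cldn4 had an H3K4me2 to IgG log2 ratio of -0.13 and an H3K4me1 ratio of 1.66.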

How the data were processed

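The mouse HPC7 cells, constructs and libraries are described above. The Snai1 and methylation libraries were prepared by different protocols, TruSeq ChIP and BGI's, per the labels. The authors deposited raw read counts per Entrez gene ID in windows of 5 kb around start sites, made with Subread and featureCounts, and 1 peak list per construct from MACS2 (GRCm38, also named mm10), with no versions named, per the submitters' processing notes. The deposited peak lists give a fold enrichment ratio over background, the -log10 q-value and the summit. Whether input served as control is not given in the sources used here. The table holds no window coordinates, and windows of neighbouring genes can share reads.

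Members and gene lists were chosen with earlier results of these data known. Of 27095 rows, 31 equal to an earlier row and 20 without a read were left out, and 25173 IDs (93.1%) matched RefSeq. Counts were tested per mark over all constructs with edgeR 4.0.16 (quasi-likelihood, TMM, filterByExpr, Benjamini-Hochberg over all windows, two-sided, 0.05) and DESeq2 1.42.0 as an alternative. The fit was also run on simulated counts in which no replicate stood apart and all windows had the same spread setting. Real libraries differ from this, so that run does not check the fit for them. Intervals are exact (95%). Named sites are the 12 strongest by wild-type -log10 q, the 6 highest and 6 lowest fold ratios, the 3 nearest the distance limit and those of the lists; named windows come from the 4 smallest p per comparison. Up to 4 genes per list follow from the rule; Flt3, Runx1, Crb3, Mir150 and the genes with several sites were named after their values were seen. Deviations of same-numbered libraries correlated above 0.1 in every pair for WT and EV and for MUT and EV (0.124 to 0.574). For WT and MUT the correlations ranged from -0.215 to 0.245. The labels give no pairing, and libraries with different numbers were not compared in this way. Replicate 1 also stood apart in every construct, so these correlations cannot show whether the numbers pair libraries.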

Additional observations from a re-analysis of the deposited data

How the results depend on the processing

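Of the values that answer a comparison, 77 stayed close to the value reported and 19 did not. Close means a count within 1.5 times, or another value within its interval, its error or the spread between libraries. Counts have no sign to reverse. Most of the 77 were counts of called windows that stayed at 0. The main fit called almost none of all windows too, so a count that stays at 0 says little about how firm a result is. The medians over windows were not in this tally. In H3K4me2 WT against EV the sites' median went from 0.05 to -0.02 under column totals. Each setting changed 1 choice, except that summing replicates 2 and 3 went with the block, and that the H3K4me1 block kept empty-vector replicates 2 and 3 apart. DESeq2 in place of edgeR gave 4 called windows of the sites in H3K4me2 WT against EV (0.563% of all windows it tested). It gave 3 in H3K4me2 WT against MUT (0.404%) and 1 in H3K4me1 WT against MUT (0.154%), and 0 in the other 3. The replicate block gave 1 in H3K4me1 WT against MUT (Ackr3, with 0.00782% of all windows called) and changed no other count. With replicates 2 and 3 summed and the replicate block, the counts were 1, 1 and 3 in H3K4me2 WT against EV, MUT against EV and WT against MUT. The shares of all windows were 0.342%, 0.073% and 0.45%. In H3K4me1 the counts were 1, 0 and 3, beside 0.085%, 0.00386% and 0.0734% of all windows. Leaving out each replicate gave 0 to 50 in H3K4me2 WT against EV, 0 to 69 in MUT against EV and 0 to 409 in WT against MUT, and 0 to 15 in H3K4me1 WT against MUT. At the highest of these counts, 2.79%, 2.4%, 16.6% and 0.823% of all windows tested were called, in the same order. No filter, column totals, empty-vector replicates 2 and 3 kept apart, genes within 2 kb, and starts within 2500 bases left every count at 0. The cause of these changes was not tested.

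A -log10 q of at least 10 in both lists left 609 sites. Reading 101 bases around the summit put the E-box share at 46.7%, by construction of the shorter span. A pseudocount of 2 CPM put the median H3K4me2 over IgG at 0.87. Keeping the empty-vector libraries apart, the start within 2500 bases, other gene sets and the promoter under the mutant summit were chosen after seeing the data. The peak lists carry no replicate error, the E-box could be read for 233 sites, and the start-site windows need not cover a summit up to 5 kb away.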
